A study of Homo sapiens with 3 samples.

Results

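Naive pluripotency is the state of the epiblast before implantation, which human embryonic stem cells keep only in specialized media, whereas cells in conventional media, among them the Essential 8 type, resemble the epiblast after implantation and are called primed. Both states share the core factors POU5F1, SOX2 and NANOG, and are told apart by other genes: transcription factors of the KLF family and TFCP2L1, germline and early embryo genes such as DPPA3 and DPPA5, and the surface protein SUSD2 mark naive cells. The 10 naive marker genes described here, KLF2, KLF4, KLF5, KLF17, TFCP2L1, DPPA3, DPPA5, SUSD2, ESRRB and NLRP7, were taken by name, and all 10 were found among the 58051 genes of the deposited counts. The samples were 3 replicates of untreated, wild-type H9 cells, an established human embryonic stem cell line, grown in Essential 8 Flex medium on vitronectin. RNA depleted of ribosomal RNA was sequenced, and the counts summed to 10390984, 12024802 and 8655155 reads in replicates 1, 2 and 3. There was 1 condition and no sample of naive cells, so that no difference between states was tested. Nothing in the labels says that the replicates came from separate cultures, so the spread between them may be technical.

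The label of an embryonic stem cell was checked first against marker genes. Levels are given as TPM, the reads on a gene divided by the length of its exons and scaled to the same sum in each replicate. The core factors POU5F1, SOX2 and NANOG lay between 249 and 815 TPM in every replicate. Markers of other cells that a culture could hold were lower, apart from NES. The summed level of 3 mesendoderm markers lay between 23.8 and 39.0 TPM in the replicates, that of 4 endoderm markers between 9.66 and 14.2 TPM, that of 5 trophoblast or amnion markers between 7.97 and 9.75 TPM and that of 4 germ cell markers between 2.81 and 5.63 TPM. The trophoblast or amnion markers CDX2 and ISL1 had no read, nor had ZSCAN4 and LEUTX of the 3 eight-cell-like markers, the other of which, DUXA, had 2. Of the neuroectoderm markers, NES had 327 ± 14.6 TPM (SD, n = 3), while PAX6 and SOX1 had 1.74 and 2.97 TPM. The 3 fibroblast markers summed to between 38.1 and 43.7 TPM, from LUM at 0.178 to COL1A2 at 25.6 TPM.

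Most naive markers lay below the median protein-coding gene, and the 10 spread over a wide range. All 10 together held 318, 415 and 326 reads in replicates 1, 2 and 3, which is between 0.00306% and 0.00377% of each library. Their median level was 3.07 TPM against 7.10 TPM for the 19629 protein-coding genes, and 8 of the 10 were below that median gene. The median of their percentiles among protein-coding genes was 41.6. With the rule of the study's methods, applied here to protein-coding genes, by which genes below 0.01 TPM are nonexpressed and the rest of the protein-coding genes are divided into 3 quantiles, at 3.35 and 26.96 TPM, no naive marker was in the high class, which holds 28.8% of protein-coding genes. The medium class held 5 (DPPA3, KLF4, TFCP2L1, NLRP7 and SUSD2) and the low class 5 (DPPA5, KLF5, ESRRB, KLF2 and KLF17), where the share of all protein-coding genes is 28.8% for each. None was nonexpressed by this rule, as against 13.6% of protein-coding genes. KLF2 and KLF17 had 1 read each, which gave means of 0.0454 and 0.0349 TPM, so a single read kept each above 0.01 TPM. With a threshold of 0.1 TPM, 2 markers were nonexpressed. A mean of at least 1 TPM was reached by 7 of the 10, and by 67.4% of protein-coding genes. In RNA from whole cultures, a few cells with a high level and many cells with a low level of a marker cannot be told apart.

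**Figure D1:**
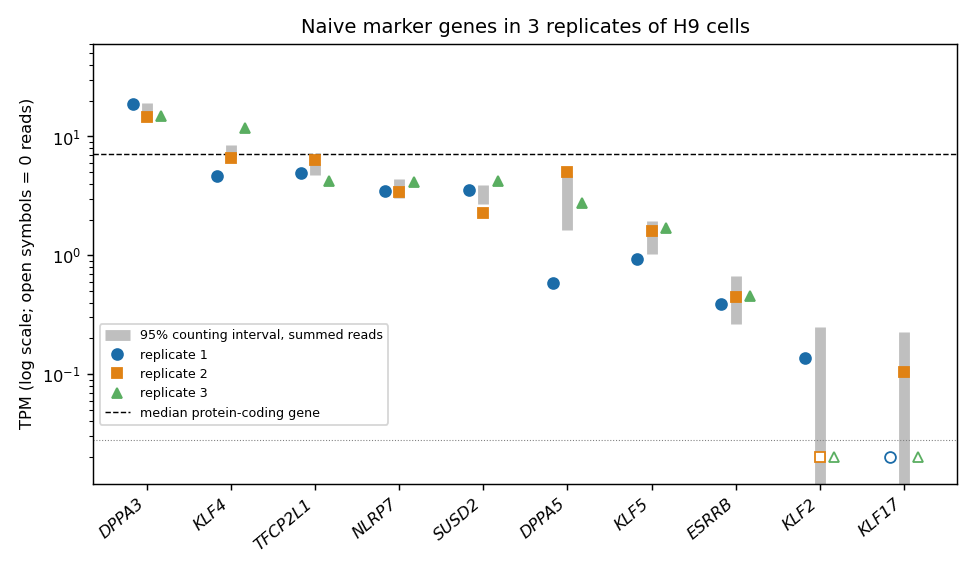
TPM of each naive marker gene (log axis) in the 3 H9 replicates, ordered by mean; gray bars are exact 95% Poisson intervals of the summed reads, open symbols under the dotted line are replicates with 0 reads, and the dashed line is the median protein-coding gene at 7.10 TPM. DPPA3 lies above that line in every replicate, KLF4 in replicate 3 only, and KLF2 and KLF17 each have a read in a single replicate.

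The germline and early embryo genes were detected in every replicate, at levels from the highest of the 10 to under the class boundary of 3.35 TPM. DPPA3 (ENSG00000187569, GRCh38 chromosome 12, 7711433 to 7717559), also called STELLA, encodes a maternal factor that protects methylation in the early embryo and marks primordial germ cells. It was the highest of the 10, with 54, 49 and 36 reads, or 18.9, 14.7 and 14.7 TPM, in replicates 1, 2 and 3. Its mean of 16.1 ± 2.38 TPM (SD, n = 3) was above 61.7% of protein-coding genes, and its lowest replicate was above the highest of every other naive marker. DPPA5 (ENSG00000203909, chromosome 6, 73353063 to 73354276), an RNA-binding KH domain protein of the early embryo, had 1, 10 and 4 reads, or 0.583, 5.01 and 2.73 TPM. Its mean was 2.78 ± 2.22 TPM (SD, n = 3), and the exact 95% Poisson interval of its 15 reads corresponds to 1.62 to 4.78 TPM. On its 659 bp of exons, 1 read was worth between 0.501 and 0.684 TPM. The mean was 1.66 TPM without replicate 2 and 3.87 TPM without replicate 1. NLRP7 (ENSG00000167634, chromosome 19, 54923509 to 54966312), an NLR family gene expressed in oocytes and early embryos, had 36, 41 and 36 reads, or 3.51, 3.44 and 4.12 TPM. Its mean was 3.69 ± 0.373 TPM (SD, n = 3), with a spread relative to the mean that was smaller in ESRRB alone among the 10.

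The KLF genes encode zinc finger transcription factors that bind GC-rich and CACCC sites, and 4 of them are naive markers. KLF4 (ENSG00000136826, chromosome 9, 107484852 to 107490482), a reprogramming factor, had 44, 73 and 96 reads in replicates 1, 2 and 3, or 4.62, 6.59 and 11.8 TPM. Replicate 3 was the shallowest library and had the most KLF4 reads. The mean of KLF4 was 7.67 ± 3.72 TPM (SD, n = 3), the second highest among the naive markers. KLF5 (ENSG00000102554, chromosome 13, 73054976 to 73077541), which is also a factor of the trophectoderm and of epithelia, had 9, 18 and 14 reads, or 0.940, 1.62 and 1.71 TPM, with a mean of 1.42 ± 0.422 TPM (SD, n = 3). KLF17 (ENSG00000171872, chromosome 1, 44118821 to 44135140), whose expression is a hallmark of human naive cells, had a single read, in replicate 2. By a fixed limit of 3 reads, the count of 0 in replicates 1 and 3 allows up to 0.365 and 0.428 TPM. The exact 95% Poisson interval of a count of 0 ends higher, at 3.69 reads. KLF2 (ENSG00000127528, chromosome 19, 16324826 to 16328685), a naive factor of the mouse that is used to reset human cells, also had a single read, in replicate 1. By the same limit of 3 reads, its count of 0 in replicates 2 and 3 allows up to 0.352 and 0.479 TPM. For both genes the 95% interval of the summed count ran from 0.0253 to 5.57 reads. Such limits and intervals take account of counting error alone, because duplicates made by PCR add reads without adding molecules.

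Of the other factors, TFCP2L1 (ENSG00000115112, chromosome 2, 121216587 to 121285202), a CP2 family transcription factor downstream of LIF and STAT3 in mouse cells, had the most reads. Its counts of 120, 180 and 87 gave 4.92, 6.35 and 4.18 TPM, with a mean of 5.15 ± 1.10 TPM (SD, n = 3), over 9367 bp of exons. ESRRB (ENSG00000119715, chromosome 14, 76310712 to 76501837), an orphan nuclear receptor of the mouse naive network, had 6, 8 and 6 reads, or 0.389, 0.446 and 0.456 TPM, with a mean of 0.430 ± 0.0362 TPM (SD, n = 3). SUSD2 (ENSG00000099994, chromosome 22, 24181487 to 24189106), a membrane protein used to sort naive cells, had 47, 35 and 47 reads, or 3.58, 2.29 and 4.20 TPM. Its mean was 3.35 ± 0.971 TPM (SD, n = 3), and replicate 2, the deepest library, was the lowest.

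In order of mean TPM the naive markers ran DPPA3, KLF4, TFCP2L1, NLRP7, SUSD2, DPPA5, KLF5, ESRRB, KLF2 and KLF17. Of the 9 pairs of neighbors in this order, 4 were separated in the sense that every replicate of one was above every replicate of the other: DPPA3 over KLF4, TFCP2L1 over NLRP7, KLF5 over ESRRB and ESRRB over KLF2. TFCP2L1 and NLRP7 were separated narrowly, at 4.18 against 4.12 TPM. The ranges overlapped for KLF4 and TFCP2L1, NLRP7 and SUSD2, SUSD2 and DPPA5, DPPA5 and KLF5, and KLF2 and KLF17. The KLF4 level was 0.938, 1.04 and 2.82 times that of TFCP2L1 in replicates 1, 2 and 3, so that their order differed between replicates. Over all 45 pairs, 36 were separated. No test was made of these orders: with 3 values against 3, a two-sided exact permutation test cannot give a p below 0.1, and the levels of both genes in a pair come from the same libraries.

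The class of a marker depended on small differences. SUSD2 was placed in the medium class by a mean of 3.3549 TPM against a boundary of 3.35302 TPM. With each replicate classified alone, the boundary between low and medium was 4.23, 4.32 and 4.75 TPM, and both SUSD2 and NLRP7 were then in the low class in all 3 replicates. DPPA3 and KLF4 were medium in every replicate, KLF5 and ESRRB low in every replicate, and TFCP2L1 was medium in replicates 1 and 2 and low in replicate 3. Altogether 6 of the 10 had the same class in every replicate. With TMM or DESeq2 scaling the mean put 4 in the medium and 6 in the low class, and without replicate 3 it put 3 in the medium and 7 in the low class.

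The naive markers were then set beside lists of genes of the primed state, of both states, and of the naive state. The median of 12 primed-state genes was 227, 214 and 193 TPM in replicates 1, 2 and 3, and that of the 10 naive markers was 2.23, 2.87 and 3.43 TPM. On the scale of log2(TPM + 0.1) the primed median was higher by 6.27 ± 0.538 (SD, n = 3). Of the primed-state genes, 11 of 12 were in the high class and above every naive marker in each replicate, among them CD24, a surface glycoprotein, at 2277 ± 46.3 TPM, DNMT3B, a de novo DNA methyltransferase, at 1200 ± 11.0 TPM and SFRP2, a secreted WNT modulator, at 693 ± 63.7 TPM (SD, n = 3). The exception was CYTL1, at 3.06 ± 2.24 TPM, with 14, 3 and 6 reads. Of 10 genes shared by both states, 9 were in the high class, and DPPA2, a germline gene that also regulates early embryonic genes, was medium at 17.9 ± 1.66 TPM (SD, n = 3). The lists hold genes picked for opposed states, with earlier results of these data known. Their medians are descriptions of these cells without a test, and the SD over replicates does not cover the choice of genes.

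Further genes of the naive state, which are not among the 10 markers, were low with few exceptions. Of 13 such genes, 2 were nonexpressed, 8 low, 1 medium and 2 high, with a median of 0.422 TPM against 3.07 TPM for the 10 markers, and 8 had no read in at least 1 replicate. ARGFX, an early embryo homeobox gene, and TRIM60 had no read in any replicate, and ZNF729 had 1. Both genes in the high class were NLRP2, at 84.2 ± 3.47 TPM, and TFAP2C, a transcription factor of naive cells, trophoblast and germ cells, at 52.6 ± 6.05 TPM (SD, n = 3). The next was ALPG, a placental-type alkaline phosphatase, at 3.66 ± 1.29 TPM (SD, n = 3).

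**Figure D2:**
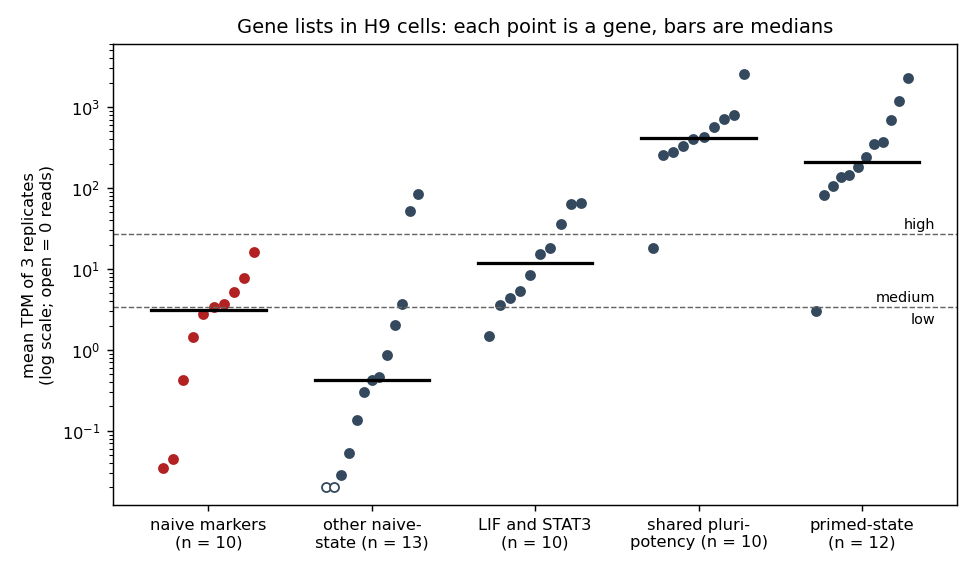
Mean TPM over 3 replicates (log axis) of each gene in 5 lists; points are genes, horizontal bars are medians, open points have no read, and dashed lines are the class boundaries at 3.35 and 26.96 TPM. The naive markers (red) all lie below the upper boundary, whereas 11 of 12 primed-state and 9 of 10 shared genes lie above it.

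LIF signals through its receptor and JAK kinases to STAT3, which drives Klf4 and Tfcp2l1 in mouse naive cells. In H9 cells, all 10 genes listed for this pathway had a mean of at least 1 TPM, as did 67.4% of protein-coding genes, with a median of 11.9 TPM. GBX2 had 64.6 ± 8.82 TPM, STAT3 62.7 ± 3.85 TPM and SOCS3, a feedback inhibitor, 35.9 ± 1.30 TPM (SD, n = 3), all in the high class. The lowest were TBX3, a naive factor, with 0.838, 1.55 and 2.12 TPM in replicates 1, 2 and 3, LIF itself at 3.55 ± 1.37 TPM and JAK2 at 4.33 ± 0.595 TPM (SD, n = 3). KLF4 and TFCP2L1, at 7.67 and 5.15 TPM, had means between that of JAK2 and the median of this list.

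Each naive marker was set beside its gene family or, for the DPPA genes, beside genes of like name or cluster. Of 18 KLF genes, 2 were nonexpressed, 5 low, 9 medium and 2 high, and KLF4 ranked 9, KLF5 12, KLF2 15 and KLF17 16 by mean TPM. The highest were KLF16 at 52.3 ± 3.32 TPM, KLF13 at 30.5 ± 0.573 TPM and KLF6 at 24.1 ± 0.121 TPM (SD, n = 3), none of which marks the naive state. KLF16 was 11.6, 7.37 and 4.64 times as high as KLF4 in replicates 1, 2 and 3. KLF14 and KLF18 had no read. KLF18 lies 2681 bp from KLF17 on the opposite strand.

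**Figure D3:**
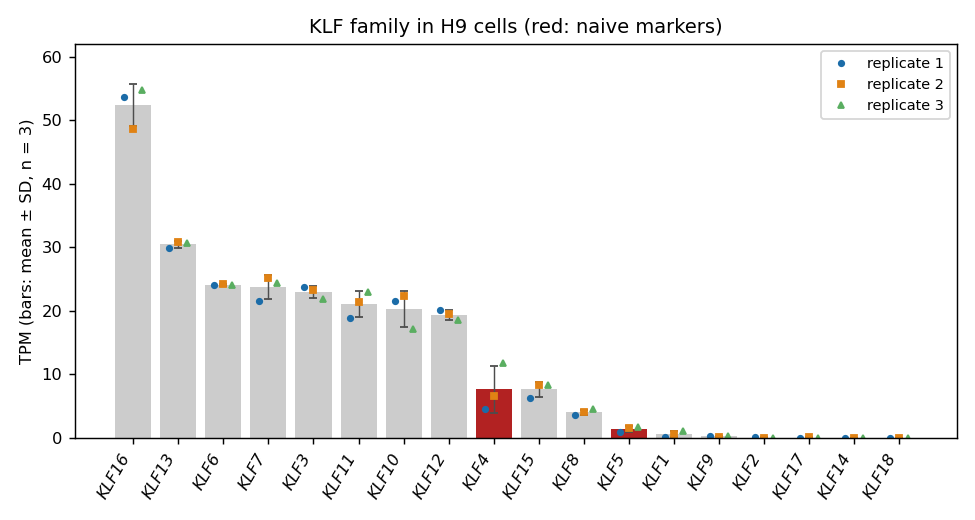
TPM of the 18 KLF family genes in H9 cells (linear axis; bars are means, error bars are SD over 3 replicates, points are replicates), with the 4 naive markers in red. KLF4 ranks 9 with 7.67 TPM and a wide spread, and KLF2 and KLF17 are close to 0.

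The families of ESRRB and TFCP2L1, and the DPPA genes, which are grouped here by name only, each held a gene in the high class. ESRRA, a receptor of energy metabolism, had 54.1 ± 1.98 TPM and was 126 ± 6.35 times as high as ESRRB (SD, n = 3), whereas the range of ESRRG, with 0.316, 0.453 and 0.577 TPM in replicates 1, 2 and 3, overlapped that of ESRRB. Of the 6 CP2 and grainyhead factors, 2 were low, 1 medium and 3 high. TFCP2, the highest, had 72.8 ± 5.54 TPM and was 14.4 ± 2.07 times as high as TFCP2L1 (SD, n = 3). GRHL2, an epithelial grainyhead factor, had 57.7 ± 4.56 TPM (SD, n = 3). DPPA4, at 710 ± 23.3 TPM, was 44.7 ± 6.07 times as high as DPPA3 (SD, n = 3), and the ranges of DPPA2 and DPPA3 overlapped. In the SUSD family, with levels from 0.979 to 7.55 TPM, SUSD2 ranked 5 of 6. In the KHDC cluster of early embryo genes on chromosome 6, DPPA5 ranked 2 of 5, after KHDC1, at 4.43 ± 0.151 TPM (SD, n = 3), and KHDC1L, OOEP and KHDC3L had 1, 2 and 4 reads in all.

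NLRP7 lay beside a gene with a very different level. NLRP2 (chromosome 19, 54953130 to 55001142) runs on the opposite strand, and the annotated spans of both genes overlap without any shared exon base. NLRP2 had 1430, 1627 and 1125 reads and was 23.0 ± 3.04 times as high as NLRP7 in TPM (SD, n = 3). NLRP7 ranked 3 of 14 NLRP genes, after NLRP2 and NLRP12, and 10 of the 14 were low. The neighbor of DPPA3 on its lower side, GDF3, a TGF-beta family ligand of pluripotent cells 15658 bp away, had 141 ± 8.35 TPM and was 8.86 ± 1.07 times as high as DPPA3 (SD, n = 3), while CLEC4C, 11824 bp away on the other side, had 7 reads in all. CABIN1, which ends 2859 bp before SUSD2 on the same strand, had 63.3 ± 2.57 TPM and was 20.0 ± 5.70 times as high (SD, n = 3).

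Copies and overlapping genes limit some of these values. Of 22 annotated pseudogenes named after a naive marker, 10 had at least 1 read. The 4 copies of KLF2 held 8, 17 and 10 reads in replicates 1, 2 and 3, against the single read of KLF2 itself, and 17 of these 35 reads were on KLF2P4, which shares 600 bp of exon with a gene on the opposite strand. The 11 copies of DPPA3 held 14 reads in all, against 139 on DPPA3, and the 3 copies of DPPA5 had none. How reads with several matches were counted is not given in the sources used here, so reads may have been shared between copies. KLF4 shares 357 bp, or 9.75%, of its exons with a noncoding gene on the opposite strand that was not among the counted genes, and whether strand was used in counting was not stated. No other naive marker shares exon bases with another annotated gene. The spans of NLRP7 and NLRP2 overlap outside shared exons, and whether reads from NLRP2 were counted on NLRP7 was not tested.

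Replicates were compared gene by gene, to ask whether a marker varied by more than counting error. A chi-square test of the 3 counts against the library totals was made for all 19578 genes with at least 15 reads, with Benjamini-Hochberg adjustment over all of them. It called 10.1% of these genes at 0.05, and 2 of the 8 naive markers tested, KLF4 and TFCP2L1. At an unadjusted p under 0.05 there were 4 of the 8, against 21.3% of all genes tested. KLF2 and KLF17 had too few reads. With at least 60 reads asked of a gene, 14.2% of genes were called, and 2 of the 5 naive markers tested, again KLF4 and TFCP2L1. With at least 15 reads, 10 of the 12 primed-state genes and 7 of the 10 shared genes were called. KLF4 had 4.23, 6.07 and 11.1 CPM, the reads scaled to the same library total, in replicates 1, 2 and 3, a 2.62-fold range, with a chi-square of 17.1 per degree of freedom and an adjusted p of 2.22e-06. TFCP2L1 had 11.5, 14.97 and 10.1 CPM, highest in replicate 2, a 1.49-fold range with an adjusted p of 0.0460. The others had adjusted p-values between 0.114, for SUSD2, and 0.977, for ESRRB. DPPA5 ranged 8.64-fold, from 0.0962 to 0.832 CPM, on 1 to 10 reads, and its adjusted p was 0.215. The test compares these libraries and not conditions.

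The KLF4 difference rested on replicate 3. Without it, the adjusted p of KLF4 was 0.494 and that of TFCP2L1 0.376, and 1.21% of genes were called. No naive marker was then called by the chi-square test, and 2 of the 6 tested had an unadjusted p under 0.05, against 10.6% of all genes tested. Without replicate 2, KLF4 was called and TFCP2L1 had an adjusted p of 0.636. In replicate 3, KLF4 was higher than the mean of the others by 1.11 on the log2 scale of CPM. The ratio varied with GC content over all genes. Among 1562 genes with at least 100 reads and a GC content within 2 percentage points of the 55.9% of KLF4, measured on the longest transcript, the same log2 ratio had a median of 0.0623, with 90% of genes between -0.218 and 0.471. Of the 8 tested markers, KLF4, TFCP2L1 and KLF5 were outside that range of the genes with like GC content. The other 5 were inside it. KLF5, DPPA5 and ESRRB, with 41, 15 and 20 reads, fell short of the 100 reads asked of the genes in the range. Fewer reads mean more counting error, for which the range makes no allowance. For TFCP2L1 the ratio was -0.399, below a range of -0.279 to 0.372. For KLF5, with 45.3% GC and 41 reads, it was 0.453, above a range of -0.272 to 0.376. The chi-square test over all 3 replicates gave KLF5 an adjusted p of 0.593. The median ratio of such genes was -0.0410 at the 40.1% GC of DPPA3 and 0.251 at the 63.4% GC of SUSD2. The summed mesendoderm markers were 39.0, 29.5 and 23.8 TPM in replicates 1, 2 and 3, of which MIXL1 had 28.1, 21.9 and 16.8 TPM. EOMES had 8.83, 6.33 and 5.05 TPM, while TBXT, with 2.07, 1.27 and 1.90 TPM, was lowest in replicate 2. The 5 trophoblast or amnion markers summed to 7.97, 8.63 and 9.75 TPM, of which KRT7 had 5.67, 6.45 and 8.00 TPM, while GCM1 had 0.829, 0.238 and 0.162 TPM and CDX2 and ISL1 had no read. The 4 germ cell markers summed to 2.81, 4.20 and 5.63 TPM, of which DAZL had 1.84, 2.79 and 4.31 TPM, while NANOS3 and DDX4 had 2 reads each in all. The part of GC content or of other cells in the KLF4 difference was not tested.

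**Figure D4:**
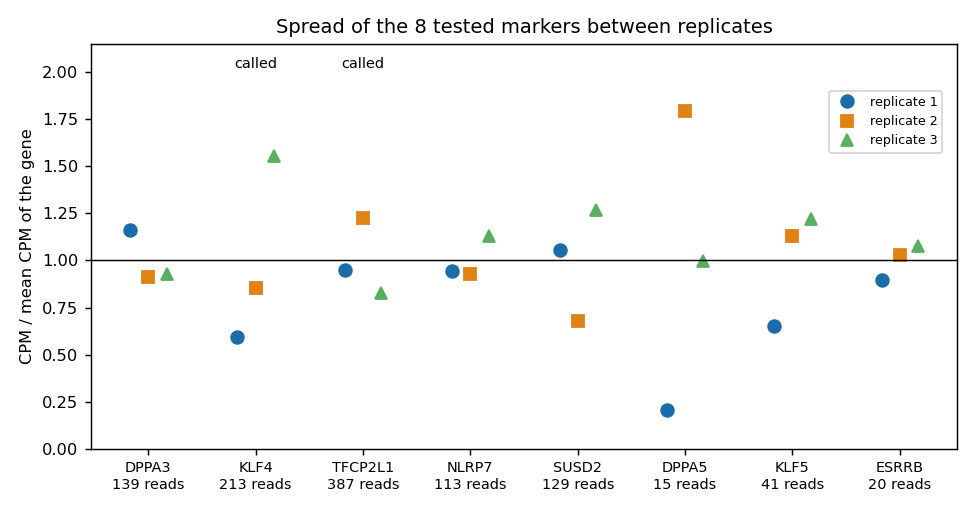
CPM of each tested naive marker in each replicate divided by the gene's mean CPM (linear axis), with the total reads under each name. KLF4 and TFCP2L1 are called by the chi-square test; DPPA5 spreads most, on 15 reads in all, and ESRRB least.

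Base composition at the start sites was examined as a feature that did not enter the choice of genes. RefSeq start sites on GRCh38.p14 were matched by symbol for 9 of the 10 naive markers, all but SUSD2, with 12 promoters of 300 bases, from 250 before to 50 after the start, since KLF5 has 2 and ESRRB 3. CpG observed over expected is the number of CG pairs divided by that expected from the number of C and G, and had a median of 0.579 over 35116 promoters. The promoters of KLF2, TFCP2L1 and KLF4 were rich in CpG, with ratios of 1.00, 0.960 and 0.934, as was 1 of those of KLF5, at 0.978, while the other had 0.331. DPPA5 and KLF17 were near the median, at 0.644 and 0.650. DPPA3 had 0.549 with only 38.3% GC, and 6 CG pairs. NLRP7 had 0.261, and the ESRRB promoters lay between 0.234 and 0.348. Of the promoters, 2 of 12 held TATAAA on either strand, as did 11.5% of all promoters, and 7 of 12 held the GC box GGGCGG on either strand, as did 45.0% of all. A match to these letters is a description and not a binding site.

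The promoters at both ends of the range of levels are shown to compare base composition with expression, 5′ to 3′ on the strand of the gene, with CG pairs in capitals. DPPA3 (chr12:7711183-7711482, plus strand), KLF4 (chr9:107489720-107490019, minus strand) and TFCP2L1 (chr2:121285153-121285452, minus strand) were the 3 highest of the 10, at 16.1, 7.67 and 5.15 TPM. KLF2 (chr19:16324576-16324875, plus strand) and KLF17 (chr1:44118571-44118870, plus strand) had 1 read each.
DPPA3: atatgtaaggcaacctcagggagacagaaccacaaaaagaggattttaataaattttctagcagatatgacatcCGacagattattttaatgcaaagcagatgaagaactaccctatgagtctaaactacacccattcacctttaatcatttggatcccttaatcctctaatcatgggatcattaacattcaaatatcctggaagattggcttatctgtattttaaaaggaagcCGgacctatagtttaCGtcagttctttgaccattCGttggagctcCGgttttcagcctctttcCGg
KLF4: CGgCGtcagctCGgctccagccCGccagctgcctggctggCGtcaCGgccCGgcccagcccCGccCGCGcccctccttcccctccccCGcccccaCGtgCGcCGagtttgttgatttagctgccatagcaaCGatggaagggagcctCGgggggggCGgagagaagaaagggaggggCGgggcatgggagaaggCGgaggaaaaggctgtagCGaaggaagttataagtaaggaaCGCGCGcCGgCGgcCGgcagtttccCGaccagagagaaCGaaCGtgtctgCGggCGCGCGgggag
TFCP2L1: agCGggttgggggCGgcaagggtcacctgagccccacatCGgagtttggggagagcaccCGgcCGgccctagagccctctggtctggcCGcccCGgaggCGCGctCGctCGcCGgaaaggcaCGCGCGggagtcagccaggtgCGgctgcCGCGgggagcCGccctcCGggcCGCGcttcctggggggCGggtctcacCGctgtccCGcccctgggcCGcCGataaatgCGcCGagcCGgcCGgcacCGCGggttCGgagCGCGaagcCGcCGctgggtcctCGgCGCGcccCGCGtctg
KLF2: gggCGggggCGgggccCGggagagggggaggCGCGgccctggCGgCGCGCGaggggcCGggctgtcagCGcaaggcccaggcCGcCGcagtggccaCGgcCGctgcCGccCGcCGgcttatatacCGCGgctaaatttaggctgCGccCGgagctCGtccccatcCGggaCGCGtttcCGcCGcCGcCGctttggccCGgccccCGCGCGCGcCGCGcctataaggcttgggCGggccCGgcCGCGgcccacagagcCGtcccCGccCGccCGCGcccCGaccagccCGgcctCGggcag
KLF17: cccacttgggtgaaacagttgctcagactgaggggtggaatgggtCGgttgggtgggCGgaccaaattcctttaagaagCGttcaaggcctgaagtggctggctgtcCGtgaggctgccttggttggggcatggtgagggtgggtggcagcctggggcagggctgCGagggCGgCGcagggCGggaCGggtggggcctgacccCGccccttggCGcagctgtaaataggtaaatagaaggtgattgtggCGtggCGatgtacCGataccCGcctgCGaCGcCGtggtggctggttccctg
The window of KLF2 had 49 CG pairs and 80.7% GC, more than any other promoter of the naive markers, that of TFCP2L1 had 43 and that of KLF4 had 33. The window of KLF17 had 18, and that of DPPA3 had 6. DPPA3, the highest marker, had few CG pairs, but so had lower markers. The window of NLRP7 had 6, and those of ESRRB had 5, 4 and 8. KLF2, with the most CG pairs, had a single read. No correlation was computed over these 9 genes.

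**Figure D5:**
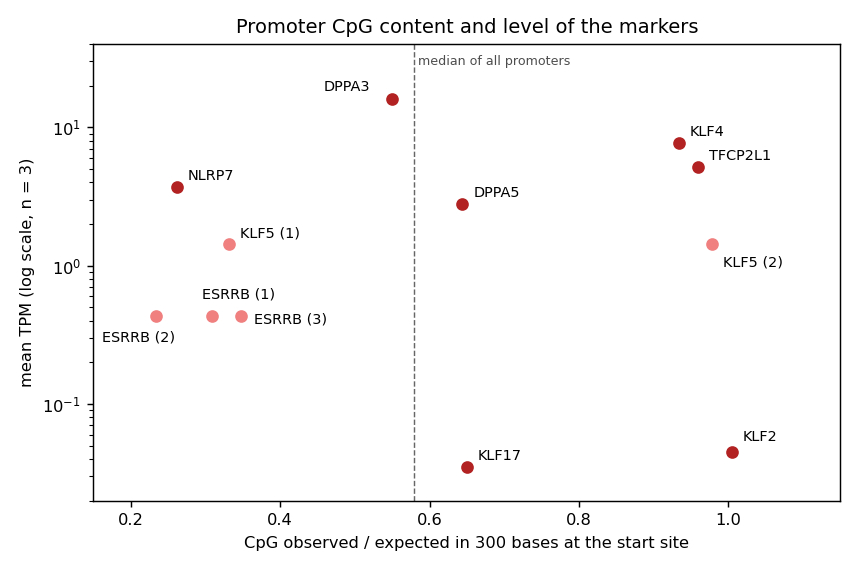
Mean TPM (log axis, 3 replicates) of 9 naive markers against the CpG observed over expected ratio of their RefSeq promoters; genes with several start sites (pale) appear once per site at the same level, and the dashed line is the median of all promoters, 0.579. KLF2 and TFCP2L1 have similar ratios, 1.00 and 0.960, with levels of 0.0454 and 5.15 TPM.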

How the data were processed

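RNA of 3 H9 replicates, depleted of ribosomal RNA, was sequenced. The authors trimmed reads (Trim Galore 0.4.4) and aligned them to GRCh38 (TopHat2 2.1.1), with versions as in the submitters' processing notes, and deposited raw counts of reads per gene. The sources used here name neither the counting tool nor its annotation or strand setting. TPM values of the study, from Cufflinks 2.2.1, were not used. Through Ensembl identifiers, 56948 counted genes were found in GENCODE release 44, and 19629 of them were protein-coding. TPM used the union of exons of each gene, and levels were averaged over the replicates. Depth per replicate was 10390984, 12024802 and 8655155 counts, and 1 read on a naive marker was worth between 0.0353 and 0.684 TPM. With a single condition no groups were compared. Differences between replicates were tested by a chi-square across all genes with at least 15 reads, with Benjamini-Hochberg adjustment. This step and the classes were tested on simulated data, in which unchanged genes varied by counting error alone. In the real replicates 21.3% of genes had an unadjusted chi-square p under 0.05, and the simulation does not cover such added variation. Intervals are exact Poisson intervals at 95%.

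The 10 genes and the context lists were chosen with earlier results of these data known. Genes named are the 10 markers, the 3 highest and 3 lowest genes of each list, cell type markers, pseudogenes, overlapping genes and nearest neighbors. A comparison of KLF proteins was planned and not analysed here. Promoters are RefSeq sequences. Alternatives used TMM (edgeR 4.0.16) and DESeq2 (1.42.0) factors, other gene lengths, thresholds, gene sets and units, and each replicate left out. The tools were R 4.3.3 and Python 3.11.15 with scipy 1.17.1, numpy 2.4.6, pandas 2.3.3 and matplotlib 3.10.9.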

Additional observations from a re-analysis of the deposited data

Results flagged for a closer look

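The pseudogene KLF2P4 had 4, 9 and 4 reads in replicates 1, 2 and 3, 17 in all, while KLF2 had 1 read. In every replicate KLF2P4 was above the fixed limit of 3 reads for a count of 0. It lies outside the measurement of the 10 naive markers, and 600 bp of its exons are shared with a gene on the opposite strand. Whether these reads come from KLF2P4, from that gene or from another copy was not tested.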

How the results depend on the processing

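No naive marker was in the high class under any alternative except the classification of all genes, where 1 was. The number of nonexpressed markers, 0, was 2 with the median of the replicates or a threshold of 0.1 TPM, 3 with a threshold of 1 TPM, and 0 to 1 with a replicate left out (1 without replicate 1 or 2). The number in the medium class, 5, was 3 with the longest transcript as gene length, with the median of the replicates or with a threshold of 0.1 TPM, 1 with a threshold of 1 TPM, and 3 to 5 with a replicate left out (3 without replicate 3). It was 4 with CPM or TMM or DESeq2 scaling, and 6 with all genes classified. The number in the low class, 5, was 3 with all genes classified, 7 with the longest transcript, 6 with a threshold of 1 TPM, CPM or TMM or DESeq2 scaling, and 4 to 7 with a replicate left out. A higher threshold makes the lowest genes nonexpressed and so moves the boundaries up. The median level of 3.07 TPM was 2.34 TPM with the longest transcript, and the median percentile, 41.6, was 39.1 with the longest transcript, 37.8 with CPM in place of TPM, 72.8 among all genes and 22.5 among protein-coding genes with at least 10 reads. Of the pairs of neighbors, 2 in place of 4 were separated with the longest transcript and with CPM. With the median of the replicates 3 were separated, and without replicate 1 there were 5. The number of markers called between replicates, 2, was 0 to 2 with a replicate left out (0 without replicate 3, 1 without replicate 2). Where no construction of the alternative shows it, the cause was not tested. The primed and naive medians differed by 5.83 to 6.52 on the log2 scale over all alternatives. TMM and DESeq2 scaling, the median and the omission of mitochondrial genes moved none of the 10 levels by more than its SD, and the longest transcript moved 4, all lower. Leaving out a replicate moved the mean of DPPA5 from 2.78 TPM to 1.66 TPM without replicate 2, and left KLF2 without replicate 1 and KLF17 without replicate 2 with 0 reads. No paired analysis was possible because only 1 condition was sequenced.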
